A study of Mus musculus with 8 samples.

Results

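Heat shock proteins and their DNAJ partners were followed through 3 routes from somatic cells to pluripotency in the mouse. The members were all genes on the array whose symbol begins with Hspa, Hspb, Hspd, Hspe, Hsph, Hsp90, Dnaja, Dnajb or Dnajc plus a number or letter, together with *Cryab*. This rule used no measured value and gave 65 genes, read by 91 probes, of 16593 genes with a named probe. It also took in *Hspbap1* and *Hspbp1*, which encode proteins that bind heat shock proteins and are not chaperones of these families. Total RNA from 8 mouse cell samples was measured, 1 Illumina bead array each. MEFs (embryonic fibroblasts), NSCs (neural stem cells) and iNSCs (neural stem cells induced from fibroblasts with *Brn4*, *Sox2*, *Klf4* and *Myc*) formed the somatic samples. ESCs, NSC 2F iPSCs (made from NSCs with *Oct4* and *Klf4*) and MEF 4F iPSCs (made from MEFs with *Oct4*, *Sox2*, *Klf4* and *Myc*) formed the control pluripotent lines, and 2 iNdiPSC clones, labelled 1 and 4, had been picked from iNSCs given *Oct4* and *Klf4*. The labels give the strain as C3H for the iNSCs and both clones and as B6D2F1/J for MEFs, NSCs, ESCs and the control iPSC lines. The MEFs, NSCs and ESCs carried a Tet-On background by the design of the series, and the iPSC lines were grown on feeder cells by the methods of the study. The groups therefore hold different cell types or lines with 1 array each, and p-values measure only the spread between these arrays.

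Levels are given as background-corrected and normalized log2 intensities, and a probe was called detected where its detection p was below 0.01. Between 43.1% and 47.2% of all probes and between 63.1% and 69.2% of members were detected per array. All 17 pluripotency markers measured were detected in each of the 5 pluripotent lines, against 2 to 4 of them in the somatic samples. The labels mark the iNSCs as pluripotent, but 4 of these markers and 13 of 16 neural stem cell and glia markers were detected in them, and they were kept with the somatic samples. All 18 fibroblast markers were detected in MEFs with a summed linear level of 79702, against 664 in NSCs, 2657 in iNSCs and 1968 (ESCs) to 4373 (NSC 2F iPSCs) in the pluripotent lines, where 7 to 14 of them were detected. *Col1a2* and *Postn* were detected in MEFs alone, and *Col1a1* was not detected in NSCs, iNSCs and ESCs. Whether cells of another type contributed to the levels of members in the pluripotent lines was not tested, and in bulk RNA fewer cells of a type and less RNA per cell cannot be told apart.

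Chaperones keep other proteins folded. HSP70 proteins hold unfolded segments in a cycle driven by ATP, DNAJ (HSP40) proteins deliver clients and trigger ATP hydrolysis, and HSP110 proteins release the nucleotide. HSP90 completes the folding of kinases and receptors with the help of cochaperones, HSP60 and HSP10 form the folding chamber of mitochondria, and small heat shock proteins hold unfolding proteins without ATP. Many of these genes are induced by the factor HSF1 through heat shock elements, which are inverted repeats of the letters GAA, while chaperones of the endoplasmic reticulum (ER) are induced through the ER stress element. Mouse pluripotent cells are known for abundant chaperones.

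Of the 65 members, 52 were detected on at least 1 array, 34 on all 8 and 13 on none. The undetected genes were 3 HSP70 genes, 2 small heat shock protein genes, 4 DNAJB genes and 4 DNAJC genes. Among the detected genes the largest ranges over the 8 arrays, with undetected probes at the lowest detected level of their array, belonged to *Hspb1* (7.21 log2 units), *Cryab* (5.98), *Hspb6* (4.74), *Dnajc6* (4.45), *Hspb8* (4.12) and *Hspbap1* (4.00). The small heat shock proteins thus held 4 of the 5 largest ranges.

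**Figure D1:**
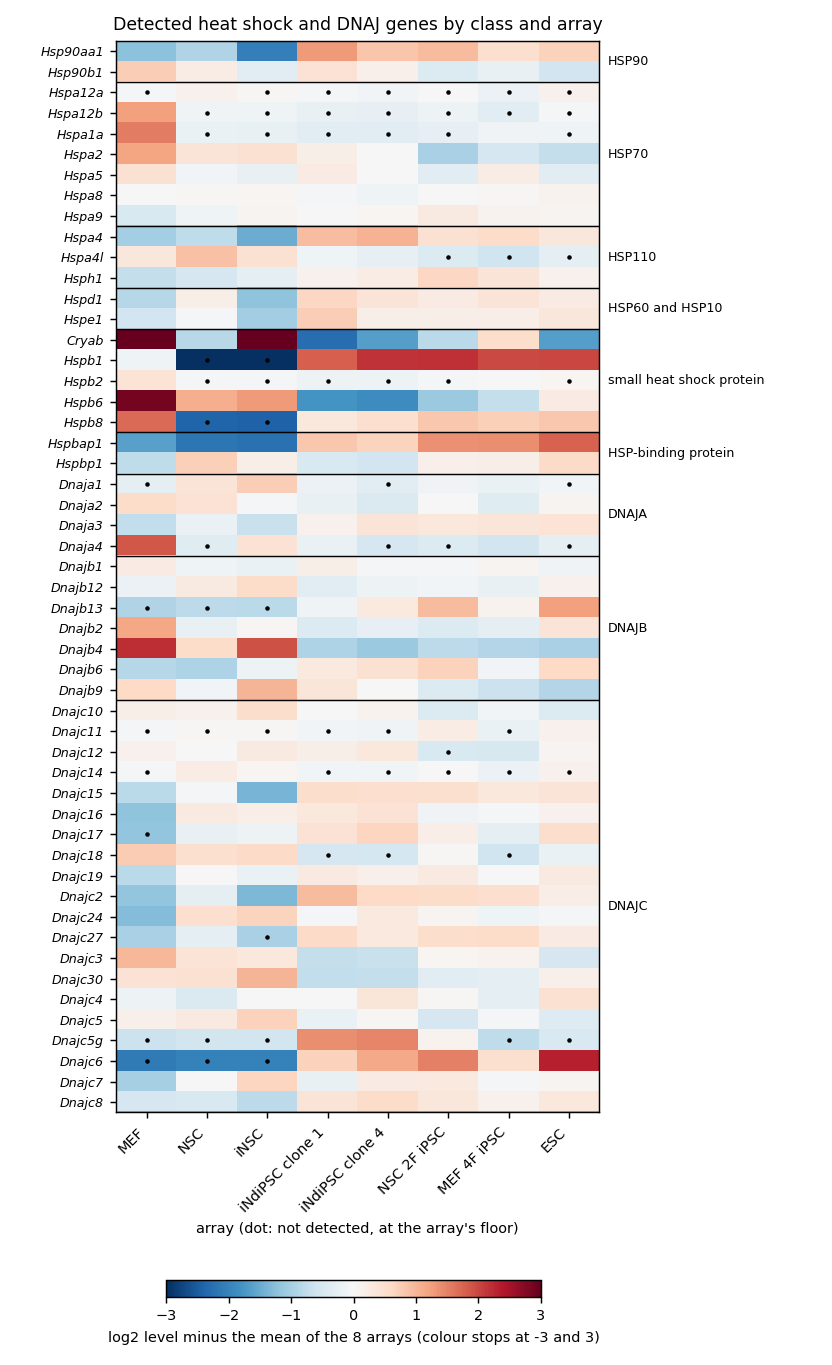
Level of each of the 52 detected members (rows, by class) on each of the 8 arrays (columns), as log2 level minus the gene's mean over the arrays, with a dot where the probe was not detected and its level was set to the lowest detected level of that array. The strongest colours lie in the small heat shock proteins, *Hspbap1*, *Dnajb4* and *Dnajc6*, and the HSP70 row of *Hspa8* is nearly blank.

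The control pluripotent lines were first compared with the somatic samples, to ask which chaperones separate the pluripotent from the somatic state. The genes *Hspb1*, *Dnajc6*, *Hspbap1*, *Hsp90aa1*, *Dnajb13*, *Hspa4*, *Dnajc2* and *Dnajc27* were higher in the control lines. The genes *Dnajb4*, *Hspb6*, *Hspa4l* and *Hspa2* were lower. Of 49 members tested (detected on at least 2 of the 6 arrays), 8 were called higher and 4 lower by limma (adjusted p under 0.05, 2-fold or more), and 37 were not called. The share called among members (24.5%) lay near that of all 9007 genes tested (23.3%, of which 12.9% higher and 10.4% lower), and 40.9% of all genes had an unadjusted p below 0.05. The median log2 difference of the members tested was 0.24, against 0.03 for all genes. The arrays of the control lines lay all above the somatic arrays for 16 members and all below for 10, against 25% and 19.9% of all genes. *Dnajb13*, *Dnajc6* and *Dnajc11* passed the detection filter only through the control lines, and *Hspa4l* and *Dnajc14* only through the somatic samples.

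**Figure D2:**
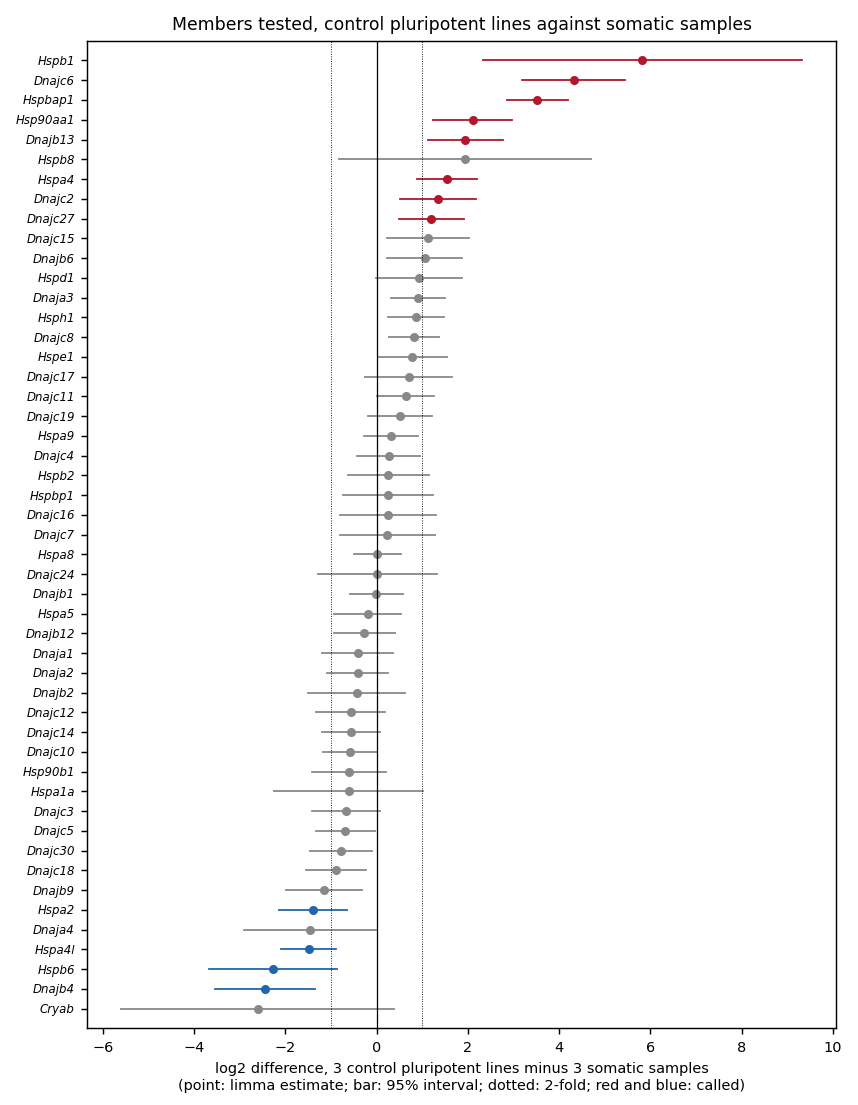
Log2 difference of the 3 control pluripotent lines minus the 3 somatic samples (x axis) for each of the 49 members tested (y axis), as the limma estimate with its 95% interval, red where called higher and blue where called lower. *Hspb1*, at 5.82, has the largest estimate and a wide interval from 2.33 to 9.32, and *Hspbap1*, at 3.52, a narrow one from 2.85 to 4.19.

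The small heat shock proteins moved in opposite directions. *Hspb1* encodes HSP27, a chaperone that also binds actin. Its level was 10.07 in MEFs and it was not detected in NSCs and iNSCs, whereas it measured 12.39 in NSC 2F iPSCs, 12.17 in MEF 4F iPSCs, 12.21 in ESCs and 12.36 in iNdiPSC clone 4. Clone 1 was the lowest pluripotent line, 0.40 below the NSC 2F iPSCs, and all 5 lines lay above the MEFs. Against the somatic samples, of which 1 had a detected level, the control lines were higher by 5.82 ± 1.45 (log2, SE, n = 3 against 3, limma adjusted p = 0.0313), at least 43.5-fold with undetected probes set to the lowest detected level of their array. The call was lost without any single array other than the MEFs (adjusted p of 0.066 to 0.106).

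*Hspb8* encodes HSP22, which works with the cochaperone BAG3 in clearing misfolded proteins. It shared the gap of *Hspb1* in NSCs and iNSCs, where it was not detected, but was highest in MEFs (9.30) and lower in NSC 2F iPSCs (8.41), MEF 4F iPSCs (8.33), ESCs (8.40) and the clones (7.92 and 8.10). The MEF array lay above every pluripotent line and the NSCs and iNSCs below every line, the groups overlapped and *Hspb8* was not called (log2 difference 1.94, 95% interval -0.82 to 4.71, limma adjusted p = 0.243). Without the MEFs it was detected in no somatic sample, passed the detection filter only through the control lines and was called (at least 9.15-fold, adjusted p = 0.000212).

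*Cryab*, which encodes the lens and muscle chaperone αB-crystallin, is a gene the study itself picked from these samples as expressed in MEFs and iNSCs. The study reports that qRT-PCR bore out this expression of *Cryab*. Its level was 11.28 in MEFs, 6.75 in NSCs and 10.61 in iNSCs, against 6.76 in NSC 2F iPSCs, 8.11 in MEF 4F iPSCs, 5.93 in ESCs and 5.30 and 5.92 in the clones. The iNSCs lay near the MEFs and 14.5-fold above the NSCs, and the lowest levels were those of clone 1, clone 4 and ESCs, the last 2 of them level. The NSCs lay at the level of the NSC 2F iPSCs, the groups overlapped and *Cryab* was not called (log2 difference -2.61, 95% interval -5.59 to 0.37, adjusted p = 0.162), but without the NSCs it was (-4.01, adjusted p = 0.0164).

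*Hspb6* encodes HSP20, a small heat shock protein of muscle, and was detected on every array. It measured 10.98 in MEFs, 9.21 in NSCs and 9.39 in iNSCs, then 7.0 in NSC 2F iPSCs, 7.41 in MEF 4F iPSCs, 8.35 in ESCs and 6.32 and 6.23 in the clones. All somatic samples lay above all pluripotent lines, and the difference of -2.27 ± 0.58 (SE, n = 3 against 3) was called (4.83-fold, adjusted p = 0.0341). This call was lost without any single control line, without the iNSCs and without background correction. Among the pluripotent lines the ESCs, whose fibroblast marker sum was the lowest, had the highest *Hspb6* level, on 1 array. The part of the fibroblast markers in the *Hspb6* levels was not tested. *Hspb2*, the neighbour of *Cryab*, was detected only in MEFs (5.62) and MEF 4F iPSCs (5.20), and *Hspb3* and *Hspb7* on no array.

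**Figure D3:**
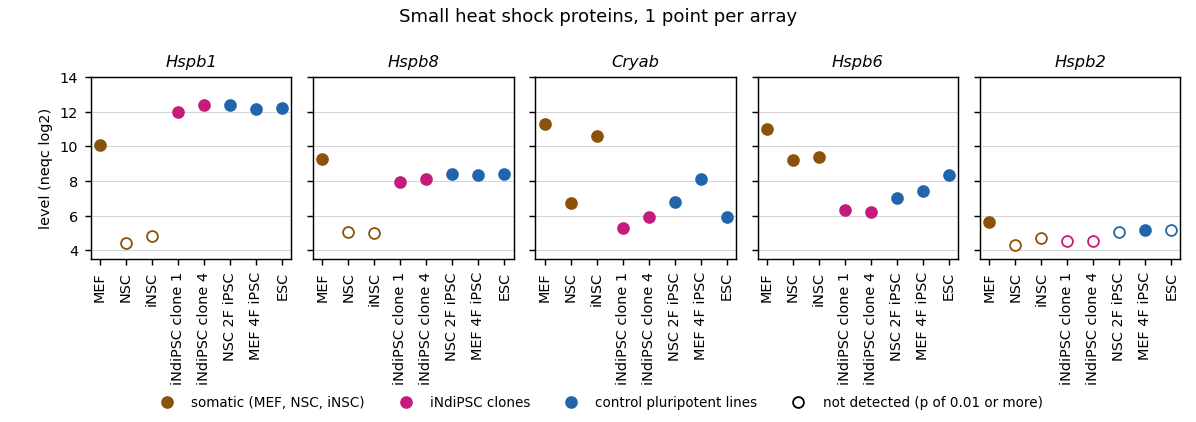
Log2 level (y axis) of the 5 detected small heat shock protein genes on each array (x axis), 1 point per array, open where not detected, coloured by group. *Hspb1* and *Hspb8* share open points in NSCs and iNSCs, and *Cryab* is high in MEFs and iNSCs (11.28 and 10.61) only.

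The bases before the annotated start are shown for these genes because *Hspb1* and *Hspb6* moved in opposite directions with the same heat shock element letters, and for *Hspe1* and *Dnajb4*, described further on. The sequences are RefSeq's on GRCm38.p6, each 150 bases long and ending just before the start, with GAANNTTC and TTCNNGAA in capitals. Both *Hspb6* and *Dnajb4* have 2 annotated starts, of which the one with a match is shown and the other has 0 matches of these letters in its window. A match of letters is a description and not evidence of binding.
Hspb1 (chr5:135887769-135887918, plus strand): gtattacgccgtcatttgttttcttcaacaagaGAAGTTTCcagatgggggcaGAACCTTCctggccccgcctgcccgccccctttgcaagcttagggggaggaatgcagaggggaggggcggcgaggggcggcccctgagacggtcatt
Hspb6 (chr7:30553151-30553300, plus strand): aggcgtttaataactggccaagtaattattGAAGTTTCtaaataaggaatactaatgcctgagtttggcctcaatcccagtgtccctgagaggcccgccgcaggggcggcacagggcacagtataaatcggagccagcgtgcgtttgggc
Hspe1 (chr1:55087998-55088147, plus strand): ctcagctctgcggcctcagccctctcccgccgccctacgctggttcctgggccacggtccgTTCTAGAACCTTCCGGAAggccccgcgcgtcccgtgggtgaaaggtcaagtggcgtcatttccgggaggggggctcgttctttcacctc
Dnajb4 (chr3:152193846-152193995, minus strand): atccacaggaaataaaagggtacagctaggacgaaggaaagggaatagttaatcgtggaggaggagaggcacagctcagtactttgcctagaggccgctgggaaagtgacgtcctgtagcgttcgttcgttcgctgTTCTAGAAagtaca
*Hspb1* holds GAANNTTC 2 times, at -117 and -97 from the start, and *Hspb6* holds it 1 time, at -120. *Hspe1* holds both letter orders overlapping as a run from -89, and *Dnajb4* holds TTCNNGAA at -14. Over windows from 250 bases before to 50 after the start, searched on both strands, GAANNTTC was found in 21.7% of the 69 windows of the 52 members matched to the table and in 7.86% of all 32851 windows. TTCNNGAA was found in 11.6% and 8.52%, and the longer form of 3 alternating units, GAA and TTC each 2 bases apart, which contains both, in 8.7% and 0.603%. Overlapping windows of 1 gene share sequence, and genes matched by the letters included *Hspa1a*, *Hsph1*, *Dnaja1*, *Dnaja4* and *Dnajb6* as well as *Hspb8*, whose match begins at 2, inside the transcribed part.

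Of the members 2 were HSP90 genes, and relatives of HSP90 outside the symbol rule are not counted here. *Hsp90aa1*, the stress-inducible cytosolic form, measured 8.07 in MEFs, 8.40 in NSCs and 7.26 in iNSCs, against 10.25 in NSC 2F iPSCs, 9.78 in MEF 4F iPSCs, 10.01 in ESCs and 10.57 and 10.13 in the clones. Every pluripotent line lay above every somatic sample, and the control lines were higher by 2.10 ± 0.36 (SE, n = 3 against 3, 4.29-fold, adjusted p = 0.0106). A second *Hsp90aa1* probe was detected on no array. *Hsp90b1*, the ER form, ran from 11.77 in ESCs to 13.09 in MEFs, with overlapping groups (difference -0.60, 95% interval -1.41 to 0.20, adjusted p = 0.217).

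The cochaperones of HSP90, a list kept apart from the members, had a median of 0.61, against 0.03 for all genes. Of 16 tested 6 were called higher and 0 lower (12.9% and 10.4% of all genes). Those called were *Fkbp5* (2.54), *Fkbp4* (2.36), *Rpap3* (1.56), *Ppid* (1.48), *Stip1* and *Ahsa1* (log2 differences, adjusted p of 0.00946 to 0.0471). *Fkbp4* and *Fkbp5* encode prolyl isomerases of the steroid receptor complex, and STIP1 bridges HSP70 and HSP90.

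Of 5 HSP70 genes tested 1 was called, against 23.3% of all genes. *Hspa8*, the constitutive cytosolic HSP70, was among the brightest probes of every array at 14.27 to 14.51, ranking between 2 and 22 from the top (difference 0.02, 95% interval -0.49 to 0.53). Quantile normalization leaves little room for a difference at such ranks. The second, dimmer *Hspa8* probe read 13.08 to 14.00, with a difference of 0.51 in the same direction. On that probe all control lines lay above all somatic samples. *Hspa9*, the mitochondrial HSP70, ran from 12.73 to 13.46, and the ER chaperone *Hspa5* (BiP) from 7.92 to 8.72 with overlapping groups (-0.20, 95% interval -0.93 to 0.53, adjusted p = 0.661).

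*Hspa2*, an HSP70 needed in sperm development, was the one called, lower in the control lines by 1.40 on the log2 scale (SE 0.31, 2.65-fold, adjusted p = 0.0217). It measured 9.42 in MEFs, 8.63 in NSCs, 8.69 in iNSCs, 7.26 in NSC 2F iPSCs, 7.75 in MEF 4F iPSCs and 7.52 in ESCs. The clones, at 8.42 and 8.24, lay between the groups. The stress-inducible *Hspa1a* was detected only in MEFs (6.94) and MEF 4F iPSCs (5.29). Whether its probe also reads the near-identical *Hspa1b* was not tested. *Hspa12b*, a distant HSP70 relative, was detected only in MEFs (6.54) and *Hspa12a* only in NSCs.

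The 3 HSP110 genes differed from each other. *Hspa4* was higher in the control lines by 1.54 ± 0.27 (SE, n = 3 against 3, 2.91-fold, adjusted p = 0.0115), with 8.36 in MEFs, 8.60 in NSCs and 7.88 in iNSCs against 9.83 in NSC 2F iPSCs, 9.92 in MEF 4F iPSCs and 9.72 in ESCs, and 10.29 and 10.41 in the clones. *Hspa4l* went the other way, with 5.90, 6.46 and 6.04 in MEFs, NSCs and iNSCs and no detection in the 3 control lines (at least 2.00-fold, adjusted p = 0.0102), while both clones were detected at 5.45 and 5.34. In this comparison *Hspa4l* passed the detection filter only through the somatic samples. *Hsph1* ran from 9.77 to 11.09, with all control lines above all somatic samples, but missed the threshold (0.86, 95% interval 0.25 to 1.48, adjusted p = 0.0518).

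Genes of the mitochondrial chaperonin were not called, although all control lines lay above all somatic samples for both. *Hspd1* (HSP60) measured 12.05 in MEFs, 13.10 in NSCs, 11.70 in iNSCs, 13.17 in NSC 2F iPSCs, 13.30 in MEF 4F iPSCs, 13.17 in ESCs and 13.54 and 13.31 in the clones (difference 0.93, 95% interval -0.02 to 1.87, adjusted p = 0.127). A second, dimmer *Hspd1* probe, detected on all arrays, differed by 1.45. *Hspe1* (HSP10) measured 10.92, 11.46 and 10.44 in MEFs, NSCs and iNSCs and 11.65 to 12.23 in the pluripotent lines (0.78, 95% interval 0.03 to 1.54, adjusted p = 0.113). The NSCs were the highest somatic sample for both, and without them both were called (1.33 and 1.04, adjusted p of 0.0207 and 0.0419). These genes lie head to head on chromosome 1. An annotated *Hspd1* start is separated by 215 bases from the *Hspe1* start, and the heat shock element printed above for *Hspe1* lies between them, whereas the other annotated *Hspd1* start lies inside *Hspe1*.

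Of the 9 mitochondrial members tested 0 were called by limma (23.3% of all genes), with 5 at an unadjusted p below 0.05 (40.9%). Of these members 5 had all control lines above all somatic samples (25% of all genes), and the median of the 9 was 0.64. That median is the value of *Dnajc11*, which was detected in no somatic sample and passed the detection filter only through the control lines. Its fold was at least 1.00, and its unadjusted limma p of 0.0467 is among the 5 counted. The closest to a call was *Dnaja3* (Tid1), at 9.81, 10.33 and 9.87 in MEFs, NSCs and iNSCs and 10.68 to 10.94 in the pluripotent lines (0.90, adjusted p = 0.0413), which stayed under 2-fold. Among other mitochondrial quality control genes 3 of 11 were called higher, *Clpp*, *Trap1* and *Grpel1*, and *Spg7* lower (12.9% and 10.4% of all genes). Among the cytosolic TRiC chaperonin genes 3 of 9 were called higher, *Cct7* (2.29-fold), *Cct6a* (2.10-fold) and *Cct6b* (at least 1.27-fold). The *Cct6b* call rests on somatic values below detection, since its bound lies under 2-fold. In each somatic sample 8 of the 9 genes were detected, against all 9 in each pluripotent line. Of these TRiC genes 8 of 9 had all control lines above all somatic samples, against 25% of all genes.

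The 2 HSP-binding proteins differed. *Hspbap1*, named for its binding to HSPB1, measured 7.17 in MEFs, 6.62 in NSCs and 6.55 in iNSCs against 10.15 in NSC 2F iPSCs, 10.19 in MEF 4F iPSCs, 10.56 in ESCs and 9.61 and 9.47 in the clones. This was the member with the smallest adjusted p (3.52 ± 0.28, SE, n = 3 against 3, 11.5-fold, adjusted p = 0.000924). *Hspbp1*, an exchange factor of HSP70, overlapped between groups (0.26, 95% interval -0.73 to 1.24).

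Among DNAJ genes tested, *Dnajc6* had the largest log2 difference (4.32). It encodes auxilin, which recruits HSP70 to strip the coat from clathrin vesicles. It was detected in no somatic sample and in all pluripotent lines, at 8.71 in NSC 2F iPSCs, 7.70 in MEF 4F iPSCs, 9.54 in ESCs and 7.90 and 8.35 in the clones (at least 11.3-fold, adjusted p = 0.00273), and its second probe differed in the same direction (3.85). *Dnajb13*, which encodes a protein of the sperm tail, was likewise undetected in the somatic samples and measured 6.94 in NSC 2F iPSCs, 6.09 in MEF 4F iPSCs and 7.23 in ESCs (at least 3.02-fold, adjusted p = 0.0114), with 5.88 and 6.28 in the clones. Both *Dnajc6* and *Dnajb13* passed the detection filter only through the control lines, where they were high.

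*Dnajc2*, a ribosome-bound J protein, was at 8.40, 9.31 and 8.23 in MEFs, NSCs and iNSCs and at 9.78 to 10.53 in the pluripotent lines (1.35 ± 0.35, SE, n = 3 against 3, adjusted p = 0.0345), with its second probe in the same direction (1.71). *Dnajc27*, a J domain joined to a small GTPase, rose by 1.20 (at least 2.26-fold, adjusted p = 0.0302). *Dnajb4*, a cytosolic relative of *Dnajb1*, fell by 2.45 (SE 0.46, 5.46-fold, adjusted p = 0.0136), from 8.55 in MEFs, 6.88 in NSCs and 8.25 in iNSCs to 5.53 in NSC 2F iPSCs, 5.45 in MEF 4F iPSCs and 5.35 in ESCs, with 5.41 and 5.21 in the clones. The NSCs were again the somatic sample nearest to the pluripotent lines. *Dnajb1*, the main heat-inducible HSP40, stayed between 10.48 and 10.93 on all arrays (-0.01, 95% interval -0.58 to 0.57).

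**Figure D4:**
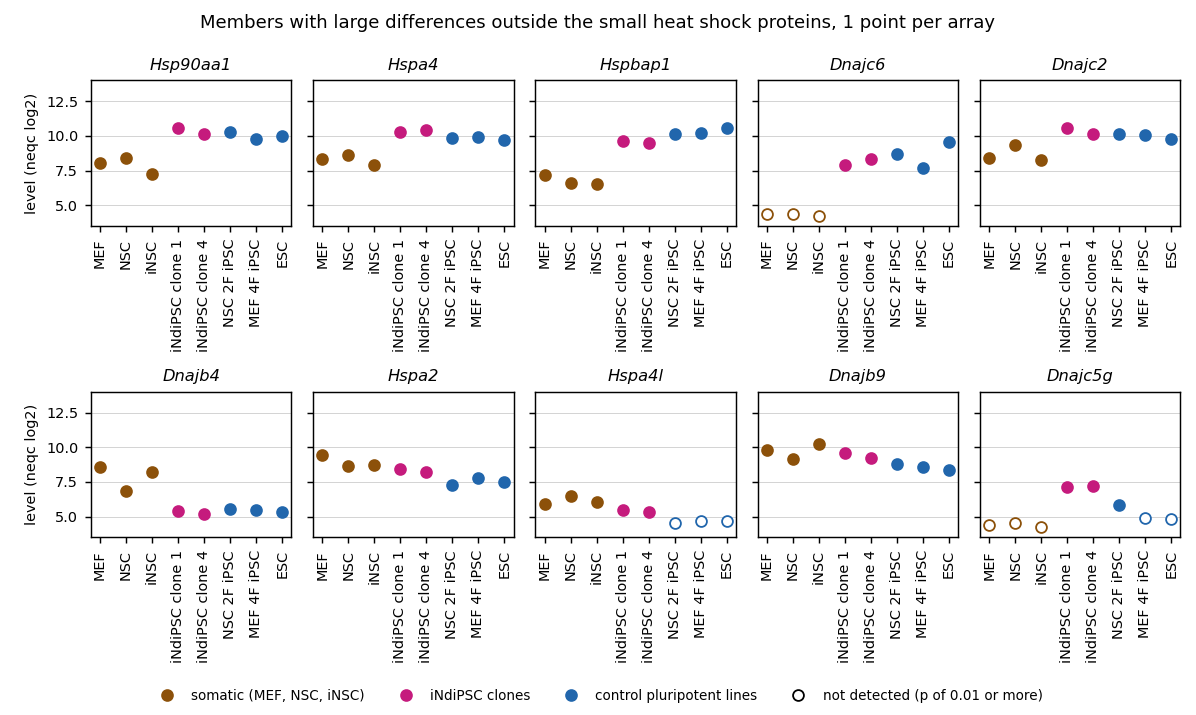
Log2 level (y axis) of 10 members outside the small heat shock proteins on each array (x axis), 1 point per array, open where not detected, coloured by group. *Hsp90aa1*, *Hspa4*, *Hspbap1*, *Dnajc6* and *Dnajc2* have every pluripotent line above every somatic sample, *Dnajb4* and *Hspa2* the reverse, and *Dnajc5g* is highest in the iNdiPSC clones.

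Of the other J proteins, *Dnajb6*, known for holding back aggregation, had all control lines above all somatic samples (1.05, adjusted p = 0.0665), and its second probe, detected on all arrays, differed by 1.97. *Dnajc15*, of the mitochondrial import motor, differed by 1.12 (adjusted p = 0.072) and *Dnajb9*, an ER J protein, by -1.15 (adjusted p = 0.0539). *Dnajc8*, of the splicing machinery, passed the p threshold under 2-fold (0.83, adjusted p = 0.0429). Second probes were tested for 12 members and had the sign of the first in 11, the exception being *Dnajc19*.

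Of 7 ER members tested 0 were called by limma (23.3% of all genes), with 1 at an unadjusted p below 0.05 (40.9%). Their median was -0.58, and 3 had all control lines below all somatic samples (19.9% of all genes). Of 16 other ER folding and stress genes 0 were called higher and 1 lower (12.9% and 10.4% of all genes), the disulfide isomerase *Pdia6* (-1.65, adjusted p = 0.0104). The ER stress element, CCAAT and CCACG with 9 bases between them, was found in 3 of 8 windows of ER members (37.5%) and in 0.119% of all windows. Those 3 are shown, with the element in capitals on either strand, because their genes share these letters and none was called.
Hspa5 (chr2:34771940-34772089, plus strand): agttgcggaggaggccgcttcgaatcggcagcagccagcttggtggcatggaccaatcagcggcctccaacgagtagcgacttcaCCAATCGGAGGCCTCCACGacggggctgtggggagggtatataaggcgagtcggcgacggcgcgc
Hsp90b1 (chr10:86705445-86705664, minus strand): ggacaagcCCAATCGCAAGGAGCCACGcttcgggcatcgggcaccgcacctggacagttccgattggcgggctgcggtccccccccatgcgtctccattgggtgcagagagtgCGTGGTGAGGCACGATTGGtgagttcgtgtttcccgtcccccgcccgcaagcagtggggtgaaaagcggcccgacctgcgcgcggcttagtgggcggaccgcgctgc
Dnajc3 (chr14:118937782-118937931, plus strand): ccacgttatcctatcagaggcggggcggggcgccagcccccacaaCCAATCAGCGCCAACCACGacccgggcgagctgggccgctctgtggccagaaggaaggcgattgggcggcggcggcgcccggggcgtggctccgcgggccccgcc
*Hsp90b1* holds the element 2 times, at -212 and, on the other strand, at -107. *Dnajc3*, which encodes the ER J protein P58IPK, measured 8.18, 7.59 and 7.49 in MEFs, NSCs and iNSCs, 7.26 in NSC 2F iPSCs, 7.30 in MEF 4F iPSCs and 6.68 in ESCs (-0.68, 95% interval -1.43 to 0.07).

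Members of a list chosen as inducible by HSF1 did not all move the same way. Of 13 tested, 3 were called higher (*Hsp90aa1*, *Hspa4*, *Hspb1*) and 1 lower (*Hspa4l*), 30.8% against 23.3% of all genes. The median was 0.78, against 0.03 for all genes. The windows of *Hspa4* and *Hspa4l* held no match of the heat shock element letters. Of the HSF genes and partners 2 were tested, and *Hsbp1*, which encodes a protein that binds HSF1 trimers, was called lower (9.12 to 9.45 in the control lines against 11.02 to 11.26 in the somatic samples, adjusted p = 0.00394).

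The somatic samples were then set against each other, 1 array against 1 array, so that these differences have no replicate check. MEFs stood apart from NSCs for 13 of 48 members at 2-fold or more (27.1%, against 35.1% of all genes), 9 higher and 4 lower (17.1% and 17.9% of all genes). The higher ones were led by *Hspb1* (at least 29.4-fold), *Cryab* (23.2-fold), *Hspb8* (at least 17.2-fold), *Dnaja4* (at least 4.71-fold) and *Hspb6* (3.41-fold), and the lower ones were *Dnajc24* (3.48-fold), *Dnajc16* (2.77-fold), *Hspbp1* (2.76-fold) and *Hspd1* (2.06-fold). *Dnajc24* encodes a J protein of diphthamide synthesis.

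In iNSCs *Hspb1* and *Hspb8*, both high in MEFs, were not detected, whereas *Cryab* was within 2-fold of MEFs. Since the iNSCs are C3H and the MEFs and NSCs B6D2F1/J, strain and cell type cannot be told apart in both comparisons of iNSCs. Against MEFs 13 of 47 members were apart (27.7%, against 34.1% of all genes, 17.6% higher and 16.5% lower), 5 higher and 8 lower, and the 5 with the largest folds lower in iNSCs were *Hspb1* (at least 29.6-fold), *Hspb8* (at least 17.3-fold), *Hspa1a* (at least 3.38-fold), *Hspb6* (3.02-fold) and *Dnaja4* (2.69-fold). *Dnajc24* (3.94-fold), *Dnajc7* (3.11-fold), *Dnajc16* (2.65-fold), *Dnajc17* (at least 2.04-fold) and *Dnaja1* (at least 2.02-fold) were higher. Against NSCs 8 of 43 were apart, 3 higher and 5 lower (18.6%, against 17.8% of all genes, 8.82% higher and 8.95% lower). *Cryab* (14.5-fold), *Dnajb4* (2.58-fold) and *Dnajb9* (2.17-fold) were higher in iNSCs, and *Hspd1* (2.64-fold), *Dnajc15* (2.56-fold), *Hsp90aa1* (2.22-fold), *Dnajc2* (2.11-fold) and *Hspe1* (2.03-fold) lower.

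The routes to pluripotency were read as each pluripotent line against its own source cells. MEF 4F iPSCs differed from MEFs in 23 of 48 members (47.9%, against 42.9% of all genes), NSC 2F iPSCs from NSCs in 13 of 48 (27.1%, against 36.8%) and the mean of the iNdiPSC clones from iNSCs in 18 of 47 (38.3%, against 40.5%). Members higher and lower numbered 13 and 10 in the MEF route (21.9% and 21.1% of all genes), 9 and 4 in the NSC route (18.2% and 18.5%) and 13 and 5 in the iNSC route (20.4% and 20.2%). In all 3 routes 5 members were at least 2-fold higher (*Dnajc6*, *Hsp90aa1*, *Hspa4*, *Hspb1* and *Hspbap1*) and 2 at least 2-fold lower (*Dnajb4* and *Hspb6*). The share of all genes beyond 2-fold in all 3 routes was not computed, so these counts have no background beside them.

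*Hspb1* differed most in size between routes, with a step of 4.28-fold from MEFs to MEF 4F iPSCs, of at least 147-fold from NSCs to NSC 2F iPSCs and of at least 128-fold from iNSCs to the clones. The lines reached nearly the same level, and the source cells did not start from the same one. *Hspb8* was higher after reprogramming of NSCs (at least 9.31-fold) and of iNSCs (at least 7.11-fold) but not of MEFs, where the log2 difference was -0.97. *Cryab* was lower in the clones than in iNSCs (31.8-fold) and in MEF 4F iPSCs than in MEFs (9.0-fold), and did not differ by 2-fold between NSC 2F iPSCs and NSCs.

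The other largest steps are given by route. MEF 4F iPSCs were lower than MEFs in *Hspb6* (11.9-fold), *Dnajb4* (8.60-fold), *Dnaja4* (5.34-fold) and *Hspa2* (3.2-fold), and higher in *Hspbap1* (8.13-fold), *Dnajc6* (at least 6.07-fold), *Hsp90aa1* (3.27-fold) and *Dnajc2* (3.2-fold). NSC 2F iPSCs were higher than NSCs in *Hspbap1* (11.6-fold), *Dnajc6* (at least 11.5-fold) and *Hsp90aa1* (3.58-fold), and lower in *Hspb6* (4.62-fold), *Hspa2* (2.58-fold), *Dnajb4* (2.54-fold) and *Hspa4l* (at least 2.47-fold). The clones were higher than iNSCs in *Hsp90aa1* (8.55-fold), *Hspbap1* (7.93-fold) and *Dnajc6* (at least 7.71-fold), and lower in *Hspb6* (8.63-fold), *Dnajb4* (7.66-fold), *Dnajc30* (3.33-fold), a mitochondrial J protein, and *Dnajc18* (at least 2.11-fold).

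**Figure D5:**
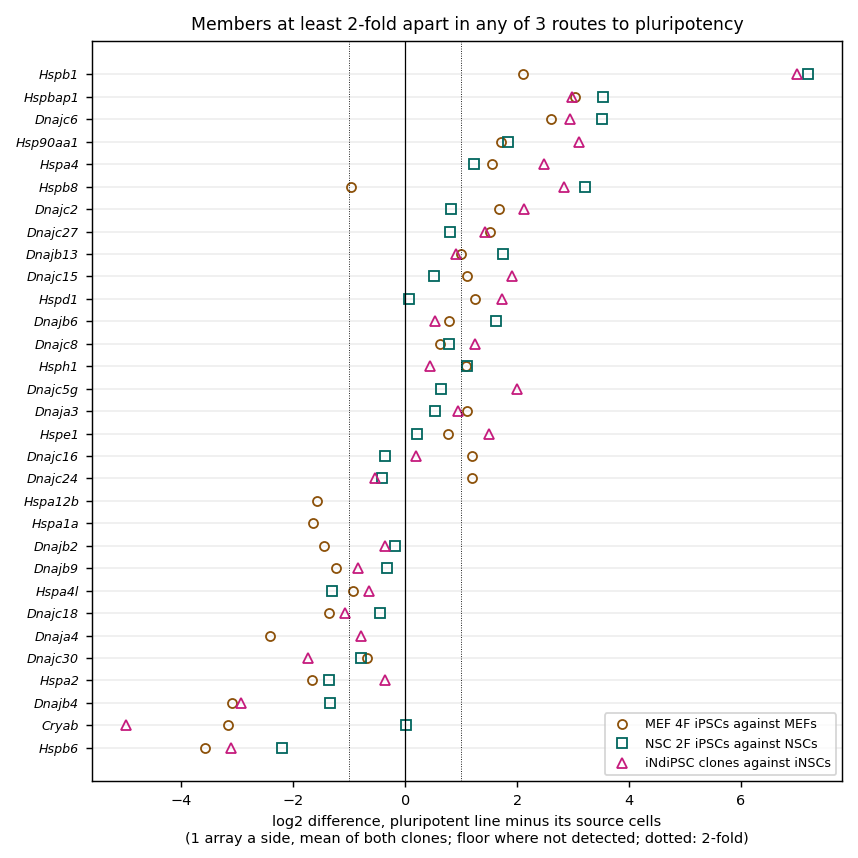
Log2 difference of each pluripotent line minus its source cells (x axis) for the 31 members at least 2-fold apart in any of 3 routes (y axis), 1 array a side except for the mean of the 2 clones, with undetected levels set to the lowest detected level of the array. Between the MEF and NSC routes *Hspb8* alone lies on opposite sides of 0 at 1.5-fold or more in both, and *Cryab* lies at 0 in the NSC route only.

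Among the pluripotent lines few members stood apart. MEF 4F iPSCs differed from ESCs in 3 of 47 members (6.38%, against 8.88% of all genes, 6.02% higher and 2.86% lower): *Cryab* was higher (4.54-fold) and *Dnajc6* (3.60-fold) and *Dnajb13* (2.20-fold) lower. NSC 2F iPSCs differed from ESCs in *Hspb6* alone of 45 members (2.54-fold lower, 2.22% of members against 6.03% of all genes, 3.86% higher and 2.17% lower). The fibroblast marker sum was 3789 in MEF 4F iPSCs, 4373 in NSC 2F iPSCs and 1968 in ESCs, and *Cryab* was 2.55-fold higher in MEF 4F iPSCs than in NSC 2F iPSCs, which had the larger sum. The smooth muscle sum ran with *Cryab* in these 2 lines, being 4929 in the MEF 4F iPSCs, 4095 in the NSC 2F iPSCs (7 of 9 markers detected in each) and 2134 in ESCs (6 detected). It did not run with *Cryab* over all arrays. The sum was 31114 in MEFs, 537 in NSCs and 255 in iNSCs, where *Cryab* measured 11.28, 6.75 and 10.61. In clones 1 and 4 it was 2167 and 2886, where *Cryab* measured 5.30 and 5.92. The part of either marker list in the *Cryab* difference was not tested.

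The iNdiPSC clones were compared with the 3 control pluripotent lines, to ask whether a neural stem cell intermediate left a mark on these genes. Of 47 members tested 0 were called by limma, against 98 of 8400 genes (1.17%, of which 0.571% higher and 0.595% lower), and 11 members had an unadjusted p below 0.05, against 19% of all genes. The median difference was 0.0037 for members and 0.021 for all genes, and both clones lay above all control lines for 13 members and below for 9, against 21.4% and 19.8% of all genes. Strain and group cannot be told apart here, since both clones are C3H and all controls B6D2F1/J. The clones themselves were at least 2-fold apart in 0 of 45 members (38 of 8338 genes), with *Cryab* the widest gap (0.62).

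*Dnajc5g*, a J protein of the cysteine string family known from testis, came nearest. It measured 7.13 and 7.21 in the clones and 5.83 in NSC 2F iPSCs, and was not detected in the other 5 arrays, iNSCs included (1.98, 95% interval 1.18 to 2.77, at least 3.51-fold, adjusted p = 0.0566). Without the NSC 2F iPSCs, the one control line in which it was detected, it passed the detection filter only through the clones and was called (at least 4.14-fold, adjusted p = 0.0283). The germ cell markers detected were summed to 2630 and 1746 in the clones and 638 to 762 in the control lines, with 4 of 10 detected in each clone and 3 or 4 in each control line. Their part in the *Dnajc5g* values was not tested.

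*Hspb6* and *Cryab* were the members lowest in the clones relative to the control lines, with both clones under every control line, although for *Cryab* clone 4 (5.92) lay level with ESCs (5.93). *Hspb6* differed by -1.31 (95% interval -2.26 to -0.36, adjusted p = 0.158) and *Cryab* by -1.32 (95% interval -2.81 to 0.16, adjusted p = 0.304). *Hspa2* (0.82), *Dnajb9* (0.83) and *Hsp90b1* (0.69) lay above and *Hspbp1* (-0.81) and *Hspbap1* (-0.76) below in both clones, with adjusted p between 0.113 and 0.144. *Hspa4l* was detected in both clones and in 0 of 3 control lines, at least 1.20-fold higher (adjusted p = 0.0915), and passed the detection filter only through the clones. For *Hspb1* the clones and controls overlapped (-0.08, 95% interval -0.54 to 0.38), as they did for *Hsp90aa1* (0.34, 95% interval -0.21 to 0.89) and *Hsph1* (-0.20, 95% interval -0.69 to 0.29). *Hspd1* differed by 0.21 (95% interval -0.20 to 0.63) and *Hspe1* by 0.22 (95% interval -0.31 to 0.75). The second *Hspd1* probe differed by -0.14, in the other direction. The intervals for *Hspb1*, *Hsp90aa1*, *Hsph1*, *Hspd1* and *Hspe1* each lay within 2-fold. They are unadjusted and measure only the spread between these arrays. Both clones came from the same iNSCs and differ from the controls in strain, so these intervals cannot exclude a 2-fold difference between routes.

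The count of members called between control lines and somatic samples depended on which arrays were in the fit. Without the NSC 2F iPSCs 2 of the 12 members stayed called, *Hspbap1* and *Dnajc6*, while the share of all genes called fell from 23.3% to 8.05%. Without MEF 4F iPSCs or ESCs 6 stayed called in each case, at 12.4% and 10.3% of all genes. Those lost in both cases were *Dnajc2*, *Dnajc27*, *Hspb1*, *Dnajb4*, *Hspa2* and *Hspb6*. Without the iNSCs 8 stayed called (18.9% of all genes called), and *Dnajc2*, *Dnajc27*, *Hspb1* and *Hspb6* were lost. Without NSCs 18 members were called, at 26.4% of all genes.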

How the data were processed

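Total RNA of 8 mouse samples was measured on Illumina bead arrays, 1 array each. The deposited intensity values were exported by the authors with BeadStudio 3.2, neither background corrected nor normalized, with a deposited detection p-value per probe against the negative control beads. A table of log2 values that the authors had background corrected and quantile normalized (RMA and lumi are named in the submitters' processing notes) served as an alternative. Intensities were corrected and quantile normalized with neqc (offset 16) in limma 3.58.1 under R 4.3.3. Of 25697 probes 23978 had 1 gene symbol and 1719 none. The brightest probe by its mean over the arrays stood for each gene. Undetected probes entered the fit at their value, and folds marked "at least" set them to the lowest detected level of the array, or to their own value if higher. Genes detected on at least 2 arrays of a comparison were tested with lmFit and eBayes (Benjamini-Hochberg adjustment). On simulated data the false share among calls lay above the nominal rate in both fits. Changes well above the 2-fold threshold were often missed between control lines and somatic samples. The 2-fold comparisons of single arrays have no test. The number of arrays limits the precision, and slide and scan are not given in the sources used here.

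The members and lists were chosen with earlier results of these data known. Genes were named if called, if among the 12 largest ranges or the 5 largest differences of a single-array comparison, or if in a small class (HSP90, HSP110, HSP60 and HSP10, small heat shock proteins), together with *Cryab*, *Hspa1a*, *Dnajb1* and *Hspa5*. Other members were named after their values were seen. At most 4 called genes per pathway list were to be named, and *Stip1* and *Ahsa1* exceed that. Alternatives were the background correction, the scaling, the authors' values, the detection filter, the fold threshold, all probes and each array left out.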

Additional observations from a re-analysis of the deposited data

Results flagged for a closer look

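Among the 40 members detected on all 5 pluripotent lines, 2 had 1 line far from the others, a number chance gives, since about 1 in 20 groups is picked out this way. *Dnajb2* measured 6.84 in ESCs, with the nearest line at 6.22. *Hspe1* measured 12.23 in iNdiPSC clone 1, with the nearest line at 11.81.

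*Hspb8* moved in opposite directions by source cell. MEF 4F iPSCs minus MEFs gave -0.97 and NSC 2F iPSCs minus NSCs gave 3.22 on the log2 scale, with 1 array a side, and this difference was not tested.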

How the results depend on the processing

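Between control lines and somatic samples, 12 members were called under the 75th percentile scaling (23.5% of all genes) and under the authors' values (24.9%), the same genes as in the text, and 13 with all probes (22.7% of probes). A 4-fold threshold left 6 (4 higher, 2 lower, against 9.49% of all genes), the filter on detection on all arrays left 4 higher (22.4% of all genes in either direction), and no background correction left 2 lower (12.8%). Leaving out 1 array gave 2 to 18 members in all, 2 to 11 higher and 0 to 7 lower, while 8.05% to 36.3% of all genes were called, and the cause was not tested. Between clones and control lines, 1 member was higher under the 75th percentile scaling (*Dnajc5g*, adjusted p = 0.0398, with 1.62% of all genes called) and 1 under the authors' values (*Hspa4l*, detected in no control line, adjusted p = 0.0464, with 1.25%), and leaving out 1 array gave 0 to 1.

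Without background correction, members at least 2-fold apart numbered 8 for MEFs against NSCs (20.2% of all genes apart), 6 for iNSCs against MEFs (19.2%), 3 for iNSCs against NSCs (8.03%), 14 for MEF 4F iPSCs against MEFs (24.3%) and 0 for NSC 2F iPSCs against ESCs (1.43%). At 4-fold they numbered 4 (14%), 2 (13.5%), 1 (3.39%), 7 (15.2%) and 0 (0.671%) in the same order, 10 for clones against iNSCs (16%), 5 for NSC 2F iPSCs against NSCs (13.5%) and 1 for MEF 4F iPSCs against ESCs (1.67%). With the authors' values 6 stood apart for MEF 4F iPSCs against ESCs (18.5%) and 4 for NSC 2F iPSCs against ESCs (14%). Of the values of single members under alternatives, 236 kept direction and side of the threshold, 31 lost the threshold, 10 gained it and 0 changed direction. No paired analysis was run. MEF 4F iPSCs and NSC 2F iPSCs have their source cell types among the somatic samples, and the clones have the iNSCs. ESCs have no source sample, and each cell line has 1 array. The fit of control lines against somatic samples took no account of these pairs. The sample descriptions all give replicate 1, and the clone numbers 1 and 4 pair with no other group.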
